A study of Mus musculus with 4 samples.

Results

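Genes of the actin cytoskeleton and the smooth muscle contractile apparatus were examined in mouse fibroblasts with and without induction of a construct for PKR, a kinase activated by double-stranded RNA. The 9 genes were the actins Acta1, Acta2, Actc1, Actb and Actg1, the actin-binding protein transgelin (Tagln), the tropomyosins Tpm1 and Tpm2, and vinculin (Vcl). All 9 genes had at least 1 probe set with a single gene symbol in the platform annotation, and together they had 13 of the 13057 probe sets that were not controls, on arrays that named 6137 genes in all. The first array type held 8 of the 13 and the second type, marked MB in the sample titles, held 5.

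The withdrawn cells were a stable NIH3T3 line, an established mouse fibroblast line, carrying wild-type PKR under a promoter that tetracycline represses, from which tetracycline had been taken away for 5 h. The tetracycline cells were the same inducible line, grown in DMEM with 5% fetal calf serum and 1 µg/ml tetracycline, which represses the construct. The serum content of the withdrawn cultures is not stated. The PKR construct is carried in all 4 samples, and the labels do not say whether the line is a single clone. Total RNA of each condition was hybridised to 1 array of each type. The 2 types carry different probe sets and were compared only within type. No value therefore has a replicate error, no test was possible, and every difference below describes single arrays.

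Actin monomers assemble into filaments that tropomyosins coat and that transgelin bundles, and vinculin links these filaments to integrin adhesions. Cells make skeletal (Acta1), cardiac (Actc1) and smooth muscle (Acta2) alpha-actin besides the cytoplasmic beta (Actb) and gamma (Actg1) actins, and cultured fibroblasts often express smooth muscle actin and transgelin. Serum response factor (SRF) drives many of these genes through a DNA element called the CArG box. Its partners of the MRTF family are held by free actin monomers and released when monomers are consumed, while its partners of the ternary complex factor family respond to growth factor signalling and drive immediate early genes. The comparison addressed whether contractile SRF targets differed in abundance after tetracycline withdrawal. SRF itself could not be read, since 0 probe sets carried the symbol Srf.

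The deposited value of a probe set is 1 linear intensity per array. A probe set counted as measured if both of its arrays read above a floor of 129.7 (first type) or 80.0 (MB type), set at percentile 25 of that type's pooled intensities. A stricter control floor is the 95th percentile of 39 bacterial and yeast control probe sets (281.5 and 340.4). A change is the log2 ratio of the withdrawn to the tetracycline intensity. Each is set beside the 200 probe sets closest to it in level, by the median of their changes and by their robust standard deviation, called the spread. This spread mixes probe noise with real differences and is no replicate error. Intensities of different probe sets depend on probe affinity and were not ranked against each other.

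Of the muscle-type actins, all 4 probe sets read lower after withdrawal. Acta2, smooth muscle alpha-actin, read 28038.9 in withdrawn cells and 37840.4 in tetracycline cells on the MB type. The withdrawn array was thus 1.35-fold lower, a log2 change of -0.43, and in bulk RNA fewer expressing cells and less RNA per cell cannot be told apart. Probe sets of similar level had a median of -0.11 and a spread of 0.18, so that Acta2 lay 1.76 spreads below them. The 2 probe sets of Actc1, cardiac alpha-actin, were lower on the same arrays. The one built on sequence record M15501 read 1428.6 in withdrawn cells and 1911.0 in tetracycline cells (-0.42), and lay 1.20 spreads below probe sets of its level. The one built on record X03767 read 3534.2 in withdrawn cells and 4443.4 in tetracycline cells (-0.33), which was 0.90 spreads below. Acta1, skeletal alpha-actin, read 167.7 in withdrawn cells and 208.2 in tetracycline cells on the first type (-0.31). Both Acta1 values were under the control floor, in the range that bacterial and yeast controls reach, and the spread at that level was 1.42. Acta1 was therefore not distinguishable from background on these arrays.

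The name of a probe set limits what it can tell apart. In the Affymetrix naming scheme a suffix with f marks probes shared by a sequence family and one with s marks probes shared by similar transcripts. Of the 13 probe sets, 7 carried f and 5 carried s, and Vcl alone carried neither. Every Actc1, Actb and Actg1 probe set was of the f kind. Actin coding sequences are close relatives, so these values cannot be assigned firmly to 1 gene.

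The cytoplasmic actins differed among their probe sets. Beta-actin (Actb) is the main cytoplasmic isoform and a common loading reference. Its probe set AA590859_f_at read 1640.1 in withdrawn cells and 1664.6 in tetracycline cells (-0.021), and AA709861_f_at read 900.7 in withdrawn cells and 1101.1 in tetracycline cells (-0.29). The third, j04181_f_at, read 2404.6 in withdrawn cells and 1455.4 in tetracycline cells. It was 1.65-fold higher (0.72), 2.11 spreads above probe sets of its level, and opposite in direction to the other Actb probe sets. Gamma-actin (Actg1) had a probe set derived from the same sequence record on each array type. On the first type it read 33365.7 in withdrawn cells and 39110.4 in tetracycline cells (-0.23), and its MB counterpart read 44876.6 in withdrawn cells and 50167.5 in tetracycline cells (-0.16). Probe sets of their level had medians of -0.15 and -0.11, and Actg1 lay at -0.43 and -0.26 spreads from them.

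The array maker's beta-actin controls are shown apart from the 13. They sit at 3 places along the transcript and occur on both array types. On the first type the 3 antisense controls read 69245.4 to 74850.8 in withdrawn cells and 83476.3 to 90870.0 in tetracycline cells, with changes of -0.34 to -0.21. On the MB type they read 98632.8 to 108795.9 in withdrawn cells and 104295.3 to 114222.6 in tetracycline cells, with changes of -0.081 to -0.022. All 6 changes were negative, and those of the first type were larger in size. The corresponding Gapdh controls, for a glycolytic enzyme, had changes of -0.38 to -0.24 on the first type and of -0.23 to -0.067 on the MB type. The sense-strand beta-actin controls, designed against the opposite strand, read 456.2 to 695.2 in withdrawn cells and 68.8 to 386.5 in tetracycline cells on the first type. Those of the MB type read 564.8 to 610.1 in withdrawn cells and 574.4 to 773.5 in tetracycline cells. The 3' sense control of the first type was at 695.2 in withdrawn cells and, at 68.8, below the floor in tetracycline cells. The Actb probe sets of the first type read 900.7 to 2404.6 in withdrawn cells, far below the antisense controls for the same transcript. Probe affinity may differ, and whether those Actb probe sets report the bulk of beta-actin RNA was not tested.

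**Figure D1:**
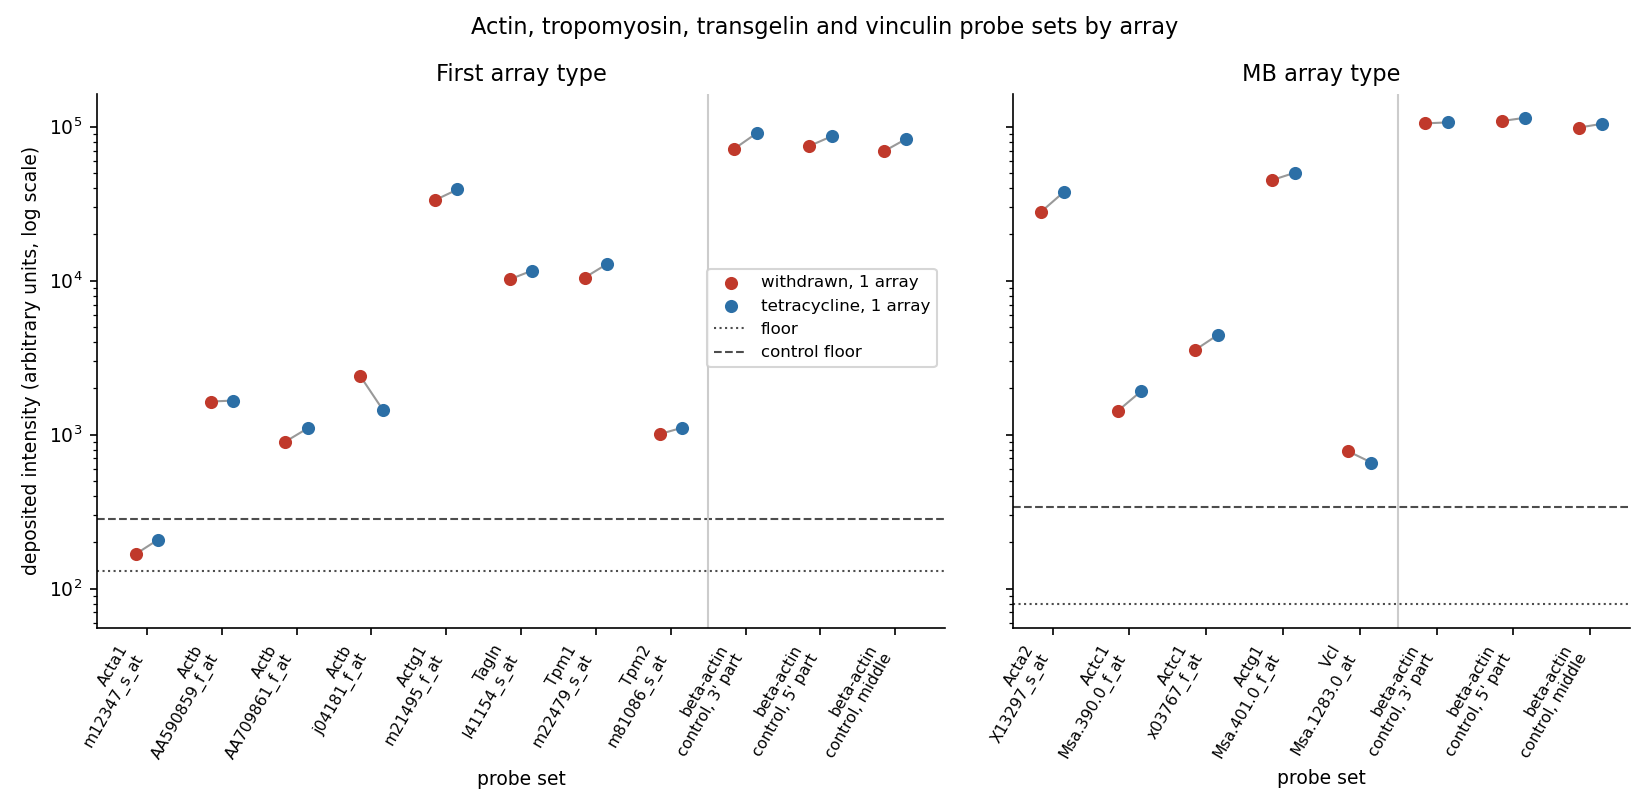
Deposited intensity (log axis, arbitrary units) of the 13 probe sets and, right of each vertical line, the antisense beta-actin controls. Each point is 1 array, withdrawn left of tetracycline; dotted and dashed lines are the floor and the control floor. In 11 of the 13 probe sets the withdrawn point is the lower, j04181_f_at of Actb and Vcl being the exceptions, and Acta1 alone lies under the control floor.

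Transgelin and the tropomyosins were slightly lower on the first type. Tagln, the actin-bundling protein SM22 alpha, read 10208.2 in withdrawn cells and 11635.9 in tetracycline cells (-0.19). Tpm1, the alpha-tropomyosin gene, read 10464.9 in withdrawn cells and 12842.1 in tetracycline cells (-0.30). Tpm2, the beta-tropomyosin gene, read 1007.2 in withdrawn cells and 1108.3 in tetracycline cells (-0.14). All 3 lay within 1 spread of probe sets of their level, at -0.29, -0.68 and -0.48 spreads. Vcl, the adhesion adaptor, was the only gene of the 9 with a positive value by the median over a gene's measured probe sets. It read 778.9 in withdrawn cells and 659.1 in tetracycline cells on the MB type, a log2 change of 0.24. Probe sets of its level had a median of 0.13 and a spread of 0.52, so Vcl did not stand out from them.

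Taken over the set, 11 of the 13 probe sets were lower after withdrawal and 2 were higher, and 0 passed 2-fold in either direction. The 13 are not separate readings. Actb, Actc1 and Actg1 each enter more than once, and f probe sets of related actins may read the same transcripts. Of all measured probe sets, 8.38% passed 2-fold on the first type and 15.1% did on the MB type. These shares were 3.18% and 2.74% above the control floor, where 12 of the 13 lay. At 1.5-fold, 1 of the 8 first-type probe sets passed (j04181_f_at) against 23.1% of all, and 0 of the 5 on the MB type against 30.5%. Above the control floor these were 1 of 7 against 15.5% and 0 of 5 against 14%. Lower to any extent were 7 of 8 on the first type, where 51.1% of all measured probe sets were lower, and 4 of 5 on the MB type, where 47.5% were. The median change was -0.21 over the 8 and -0.33 over the 5. Over all measured probe sets it was -0.012 and 0.025.

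Bright probe sets tended to read lower on the withdrawn arrays, and several of these genes are bright. When measured probe sets were cut into 10 bins by level, the brightest bin had a median change of -0.11 on the first type, with 64.5% lower, and -0.10 on the MB type, with 65.8% lower. Actg1, Tagln and Tpm1 belonged to this bin on the first type, as did Acta2 and Actg1 on the MB type. Against their neighbours in level, 11 of the 13 still lay below the median, with a median difference of -0.18 over all 13, and 10 of the 13 lay within 1 spread. The other 3 were Acta2, the M15501 probe set of Actc1 and the Actb probe set j04181_f_at.

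**Figure D2:**
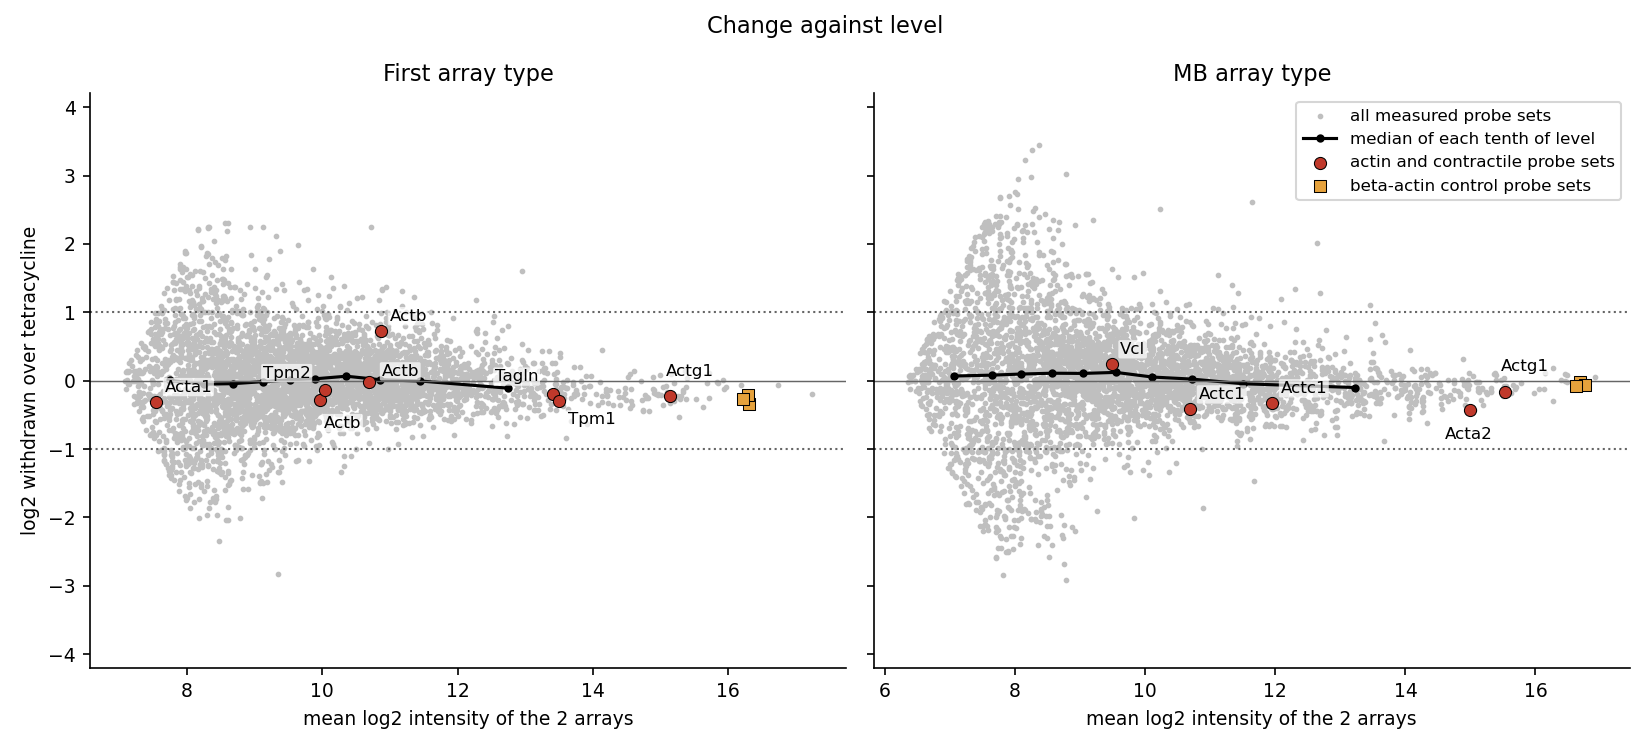
Log2 of withdrawn over tetracycline intensity against mean log2 intensity for every measured probe set (grey), with the median of each of 10 level bins (black line), the 13 actin and contractile probe sets (red) and the antisense beta-actin controls (orange). Dotted lines mark 2-fold; all 13 lie between them, and the black line ends at -0.11 (first type) and -0.10 (MB type).

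The direction of each of the 13 probe sets was the same under 4 other scalings of the intensities, with 11 lower and 2 higher each time. The sizes differed. For Actg1 the change was -0.033 and -0.093 (first and MB type) after quantile normalization, and -0.050 and -0.0090 after removal of the level trend, against -0.23 and -0.16 as deposited. Acta2 kept -0.29 and -0.30 under these scalings, and the Actc1 probe sets -0.47 and -0.27 after quantile normalization and -0.46 and -0.30 after trend removal. Quantile normalization and trend removal moved the median MB probe set by -0.11 and -0.105.

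**Figure D3:**
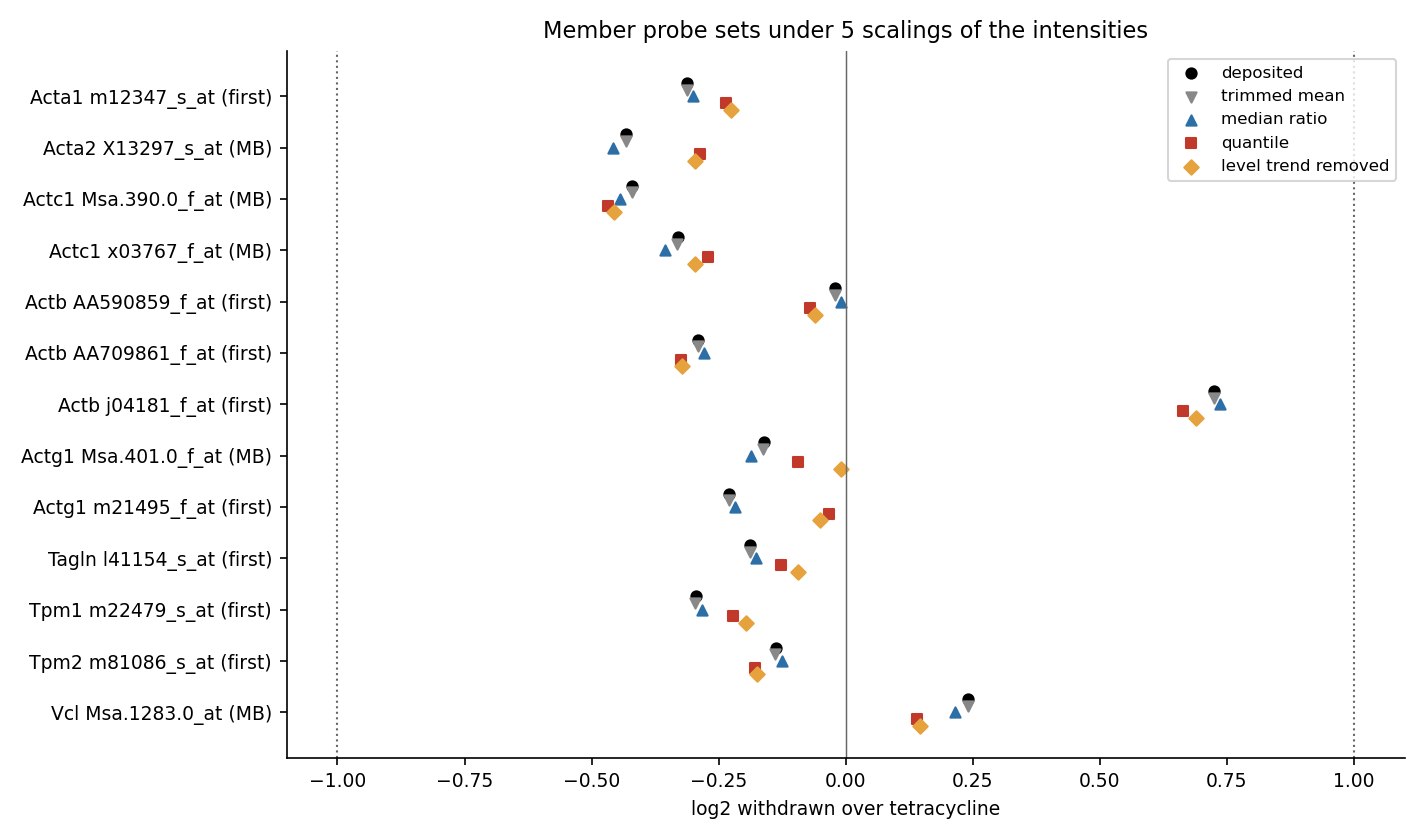
Log2 of withdrawn over tetracycline intensity of the 13 probe sets (rows, with array type in parentheses) as deposited and under 4 other scalings. No marker crosses 0 or reaches the dotted 2-fold lines; the markers closest to 0, both at -0.0090, are the MB probe set of Actg1 with the trend removed and AA590859_f_at of Actb with median ratio scaling.

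The promoters were searched for the SRF element. A CArG box is CC and GG around a core of 6 bases that are each A or T. The 250 bases before the transcription start were read from the promoter windows of RefSeq (GRCm38.p6), which held 7 of the 9 genes, all but Actb and Tagln. The box has the same form on either strand, so a search of 1 strand covers both, and no other motif was searched. Acta1, Actc1, Actg1 and Vcl each held 1 box, while 1.62% of the 27025 genes with a window held at least 1. Acta2 held none, but 2 elements with a single G or C in the core. Besides their box, Acta1 held 2 and Actc1 held 3 such elements, which are not printed below. Counting such elements as well, 5 of the 7 had a match, against 9.78% of all genes, and Tpm1 and Tpm2 had none. Since the genes were chosen as contractile SRF targets, these shares describe the choice and are no separate evidence. The boxes, in capitals, are shown with up to 30 bases on either side, 5' to 3' on the strand of the gene, because they are the elements through which SRF could act on these transcripts.
Acta1: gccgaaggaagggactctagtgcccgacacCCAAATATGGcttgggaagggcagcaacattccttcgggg
Acta2 distal: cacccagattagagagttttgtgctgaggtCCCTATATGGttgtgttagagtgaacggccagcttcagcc
Acta2 proximal: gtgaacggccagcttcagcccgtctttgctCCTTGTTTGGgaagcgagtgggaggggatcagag
Actc1: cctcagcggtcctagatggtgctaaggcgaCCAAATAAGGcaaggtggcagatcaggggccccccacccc
Actg1: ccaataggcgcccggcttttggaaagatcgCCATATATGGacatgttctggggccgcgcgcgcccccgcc
Vcl: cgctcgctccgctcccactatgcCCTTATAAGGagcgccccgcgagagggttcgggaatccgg
These windows are chr8:123894809-123894878, chr19:34255418-34255487, chr19:34255374-34255437, chr2:114052883-114052952 and chr11:120348546-120348615, all on the minus strand, and chr14:20929148-20929210 on the plus strand. The boxes and the Acta2 elements begin 73, 84, 34, 47, 90 and 227 bases before the start, in the same order. The box of Vcl was the farthest from its start. The single-array changes cannot link any box to a change.

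The lists below were counted without any of the 9 genes, apart from the smooth muscle markers. Other contractile and cytoskeletal SRF targets were, like the 9 genes, more often lower than higher. Of 36 further listed targets of SRF and MRTF, 25 were on the arrays and 20 were measured. Of these, 14 were lower and 6 higher, 0 passed 2-fold, and the median gene change was -0.18. The 9 actin and contractile genes, taken by the same rule as the median over a gene's measured probe sets, had a median of -0.20, with 8 lower and 1 higher. Over all 4507 measured named genes the median was -0.004 and 50.4% were lower, while 5.26% passed 2-fold upward and 4.22% downward. Wdr1, a cofactor of actin filament disassembly, read 5090.4 in withdrawn cells and 7799.3 in tetracycline cells (-0.62). Thbs1, the matrix protein thrombospondin 1, was at -0.44 and Fhl2, an adhesion-associated LIM protein, at -0.34. Tpm4, a nonmuscle tropomyosin, was at 0.27. Cnn1 and Myh11, encoding smooth muscle calponin and myosin heavy chain, exceeded the floor on the withdrawn array only, and both were under the control floor there. The same held for Csrp2, which read 223.1 in withdrawn cells and 11.4 in tetracycline cells. They were chosen after their values were seen. After removal of the level trend the medians were -0.17 for the 9 genes and -0.14 for the list. With the brightest probe set per gene they were -0.19 for the 9 genes and -0.082 for the list.

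The immediate early SRF targets differed in sign from the contractile ones. Of 15 listed genes 10 were on the arrays and 8 were measured, and all 8 were higher after withdrawal, 2 of them by at least 2-fold. Their median change was 0.74. Junb, an AP-1 subunit, was at 1.52. Egr1, a zinc finger transcription factor induced within minutes of growth factor stimulation, read 3665.0 in withdrawn cells and 1475.5 in tetracycline cells (1.31). Nr4a1, an orphan nuclear receptor, was at 0.80, and Ier2, a nuclear immediate early protein, at 0.74. Egr2, a relative of Egr1, read 413.1 in withdrawn cells and 45.4 in tetracycline cells, below the floor, so that it was at least 5.16-fold higher against the floor and at least 1.21-fold against the control floor. The Fos probe set K02785_at read 202.5 in withdrawn cells and 34.8, below the floor, in tetracycline cells. Both values were under the control floor, and the other Fos probe set was below the floor on both arrays. Egr2 and Fos were chosen after their values were seen. The difference between the lists was not tested, since 1 array per condition gives no error. The lists share 0 genes. In the promoter search, 2 of the 10 immediate early genes with a window held a CArG box. These were Srf and Egr2, neither of them among the 8 measured. Egr1, Fosl1 and Ier2, which were measured, had no window, so their promoters were not searched. On the SRF and MRTF list 5 of 31 genes with a window held a box, against 1.62% of all genes. Serum induces immediate early genes, the serum content is stated for the tetracycline cells only, and its part in the result was not tested.

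**Figure D4:**
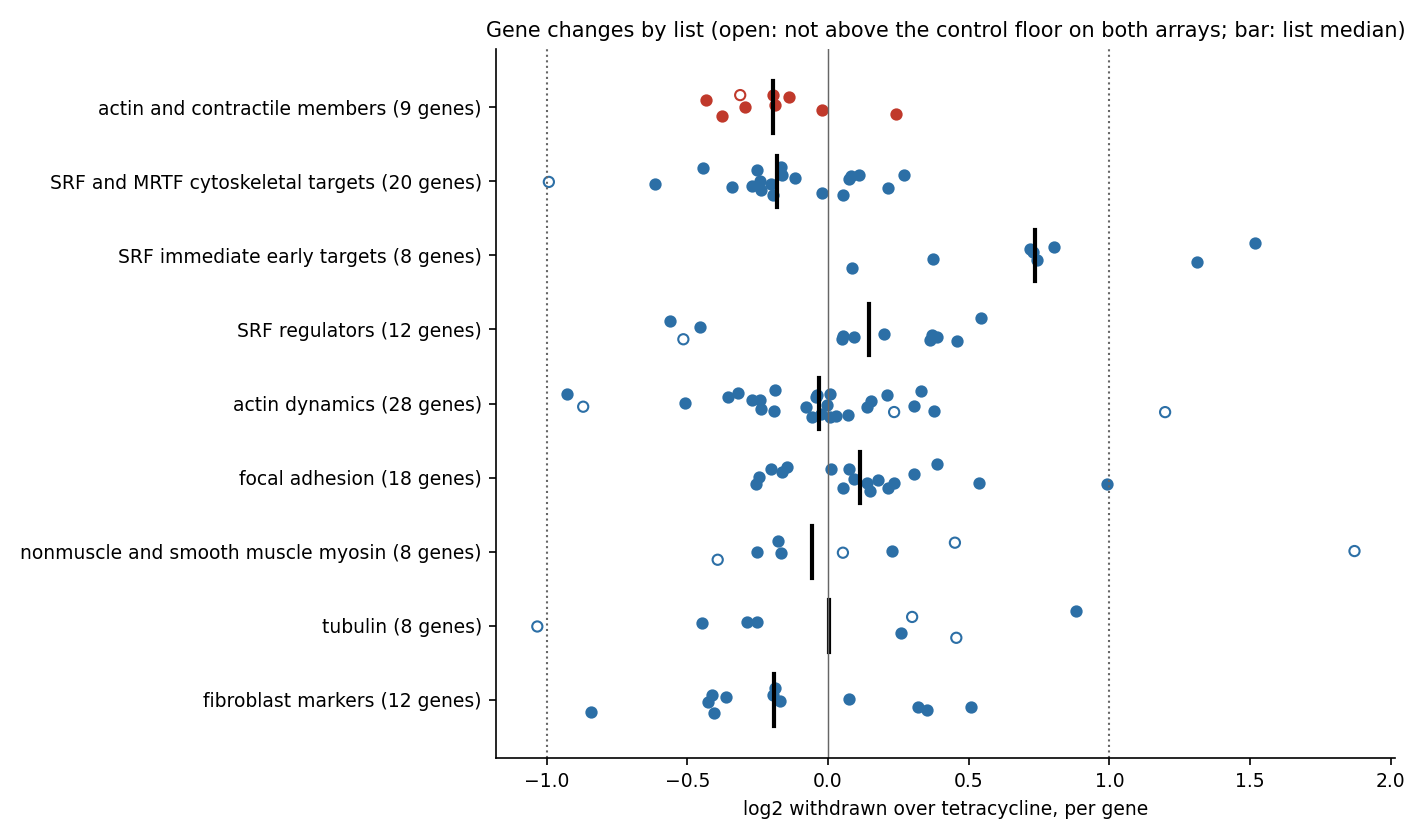
Log2 of withdrawn over tetracycline intensity per gene for the 9 actin and contractile genes (red) and 8 other lists (blue), with points jittered vertically and the list median as a black bar. Open points are not above the control floor on both arrays, and dotted lines mark 2-fold. The contractile lists have medians of -0.20 and -0.18, and all 8 immediate early genes lie right of 0.

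Regulators and partners of SRF were more often higher than lower, with sizes that differed between the array types. Of 12 measured regulators 9 were higher, 3 were lower and 0 passed 2-fold, with a median of 0.145. The median was 0.36 on the first type alone (5 of 5 higher) and 0.055 on the MB type alone (6 higher and 3 lower of 9). Mrtfa, the actin-sensing SRF coactivator, read 1347.0 in withdrawn cells and 1030.4 in tetracycline cells (0.39). Elk3, a ternary complex factor, was at -0.56, and Rac1, a GTPase of lamellipodial actin assembly, at -0.45.

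Actin assembly factors, some of them also on the SRF cytoskeletal list, went both ways. Of 28 measured genes 16 were lower and 12 higher, with a median of -0.033 (-0.005 from first-type and -0.043 from MB probe sets). Arpc4, a subunit of the Arp2/3 nucleator, read 1617.2 in withdrawn cells and 3072.1 in tetracycline cells (-0.93), and Actr3, another subunit, was at 0.38. Cfl2, the muscle cofilin, was at -0.51 and Tmsb10, an actin monomer-binding thymosin, at -0.36. The only gene past 2-fold, chosen after its values were seen, was Coro1a (1.20), a coronin that was under the control floor in tetracycline cells.

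Focal adhesion genes were higher in most cases, though less uniformly on the MB type, which holds Vcl. Tln1, Zyx, Actn1, Itga5 and Itgb1 are also on the SRF cytoskeletal list, and Vasp is also among the actin assembly factors. Of 18 measured genes 13 were higher, 5 were lower and 0 passed 2-fold, with a median of 0.115. Their changes ran from -0.26 to 0.99, and the 4 genes named below had the changes of largest size. The first type alone had 9 of 9 higher (median 0.15), and the MB type alone had 7 higher and 5 lower of 12 (median 0.055). The kinase Src read 793.7 in withdrawn cells and 399.7 in tetracycline cells (0.99). Fermt2, the integrin activator kindlin 2, was at 0.54, Lims1, an adaptor of integrin-linked kinase, at 0.39, and Vasp, a filament elongation factor, at 0.31.

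Among myosins, Myh9, the heavy chain of nonmuscle myosin IIA, was lower on all 3 of its probe sets and at -0.25 as a gene. Myh9 is also on the SRF cytoskeletal list. Myl12b, a regulatory light chain, was at -0.17, Myo1c, a membrane-linked myosin, at -0.18, and the phosphatase subunit Ppp1cb at 0.23. Of 8 measured genes 4 were lower and 4 higher. Only Myo1e (1.87), chosen after its values were seen, passed 2-fold, and it was under the control floor in tetracycline cells.

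Tubulins, the subunits of the other main filament system, were listed for comparison and not as SRF targets. Of 8 measured genes 4 were lower and 4 higher. The median of 0.003 turned to -0.020 with median ratio scaling, to -0.25 at the control floor and to -0.45 on the first type alone. In the other direction it was 0.30 with the floor at 0.5 times and 0.26 on the MB type alone. Tuba1a was at -0.45 and Tubb4b at -0.29, while Tuba3a was at 0.88 and Tubb4a at 0.26. Tubb2a (-1.03), chosen after its values were seen, was the 1 gene past 2-fold and was under the control floor on both arrays.

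The fibroblast identity of the line was checked on its markers. Of 14 listed fibroblast genes 13 were on the arrays, and 12 of these exceeded the control floor on both arrays, including Col1a1, Col1a2, Fn1, Vim and Thy1. Their median change was -0.19, and -0.16 with the level trend removed, with 8 lower and 4 higher, close to that of the contractile genes. S100a4, a fibroblast calcium-binding protein, was at -0.84, Pdgfrb at 0.51, Pdgfra at -0.43 and Col1a2 at -0.41. Of the smooth muscle markers 5 of 10 were on the arrays, and Acta2 and Tagln were the 2 above the control floor. Of 20 striated muscle markers on the arrays 8 exceeded the control floor, among them Tnni3 (-0.67), Myog (-0.47), Tnnc2 (0.38) and Mb (-0.33). Of 7 leukocyte markers 4 did, namely Ptprc (-0.96), Lyz2 (0.38), Cd3e (0.24) and Cd14 (0.088). The files hold no detection calls, so whether such readings are signal of the named gene was not tested. With 2 conditions, no other gene was ranked by likeness to these 9.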

How the data were processed

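Total RNA of 4 samples was measured on 2 array types, with 1 withdrawn and 1 tetracycline array per type. The authors deposited 1 linear intensity per probe set and array, per the file headers, and their scaling and software were not given in the sources used here. The 2% trimmed means were 1000.4 (withdrawn) and 999.9 (tetracycline) for the first type, and 997.3 and 996.6 for the MB type, so the values were used as deposited. The 61 control probe sets per type were left out of counts. The platform annotation gave 1 symbol to 5541 (first type) and 2001 (MB type) probe sets, several to 197 and 27, and none to 785 and 4506. Symbols were updated through Entrez identifiers, and 5532 and 1993 matched RefSeq genes of GRCm38.p6.

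A log2 change of withdrawn over tetracycline intensity was computed from the deposited intensities, with no pseudocount. A gene took the median over its measured probe sets on both types. The genes, the 11 lists and the floors were chosen with earlier results of these data known. All probe sets of the 9 genes are named, and from each list up to 4 genes with the largest change above the control floor, plus any past 2-fold there. From the list of SRF regulators, 1 such gene is not reported here. With 1 array per condition and type, no replicate error can be stated. The same antisense control probe sets, read on both types, differed in change between them. Median changes were -0.27 (first type) and -0.07 (MB type) for beta-actin, and -0.33 and -0.16 for Gapdh. Such differences between the types were not small beside the changes of the 9 genes. Counting and scaling were tested on simulated data with little noise and planted changes past 2-fold. That check does not cover changes as small as those of the 9 genes. Alternatives were 4 scalings (lowess span 0.4), other floors, 1.5-fold and 3-fold limits, the brightest probe set and each array type alone. Python 3.11.15, numpy 2.4.6, pandas 2.3.3, statsmodels 0.14.6 and matplotlib 3.10.9 were used.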

Additional observations from a re-analysis of the deposited data

How the results depend on the processing

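The count of 0 probe sets of the 9 genes past 2-fold was the same on both array types under the 4 other scalings. Of these, trimmed mean scaling moved the median probe set by only -0.001 on each type. The 3 other floors and a 3-fold limit could not raise the count, since all 13 probe sets were already measured. With a 1.5-fold limit the count was 1 (first type) and 0 (MB type). The count over all probe sets, 369 (first type) and 659 (MB type), depended on the floor and the limit. It was 736 and 1153 with the floor at 0.5 times, 121 and 273 with the floor at 2 times, 113 and 75 at the control floor, 1016 and 1330 at 1.5-fold, and 75 and 258 at 3-fold. Of the called MB probe sets 56.0% were higher as deposited, 48.8% with quantile normalization and 72.0% at the control floor. The median over the 9 genes stayed between -0.27 (MB type alone) and -0.17 (level trend removed). With the brightest probe set per gene it was -0.19, and Actb then took the value of j04181_f_at, which left 7 genes lower and 2 higher. In settings chosen after the data were seen, it was -0.20 when the antisense beta-actin controls were counted with Actb (Actb then -0.081) and -0.24 without the f probe sets, which left 6 genes. Medians of the immediate early list lay between 0.70 and 0.80. No paired analysis was possible because each condition has 1 array per type. Signal near background limits Acta1.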
